A study of Homo sapiens with 4 samples.

Results

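The genes described here were 4 tropomyosins, TPM1, TPM2, TPM3 and TPM4, and 6 chains of myosin II, the light chains MYL4, MYL6, MYL9, MYL12A and MYL12B and the heavy chain MYH9. These 10 genes were taken by symbol from a table of 25066 genes. They were chosen by family and on measured values of this same comparison, since MYL4 and TPM1 were already known to be much higher in 1 genotype. Their values are therefore given as a description, with no test on any of them. Of the 10 genes, 9 had a value above 0 in 2 or more libraries and so passed the filter on low values, and MYL9 did not.

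Tropomyosins are coiled-coil proteins that lie end to end along actin filaments and set which myosins and filament-severing proteins can bind there. Non-muscle myosin II is built of paired heavy chains, which carry the motor, with an essential and a regulatory light chain on each neck, and phosphorylation of the regulatory light chain by ROCK or myosin light chain kinase switches the motor on. Gα13, the product of GNA13, activates RhoA and through it ROCK, and in germinal center B cells this route is known for restraining migration and growth.

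The data were gene-level RNA-seq values from NUDUL1, a human diffuse large B cell lymphoma line of the germinal center B cell type. The cells were a single-cell clone with doxycycline-inducible Cas9 that had been transduced with the Gα13-coupled thromboxane receptor Tbxa2r, and they carried either a control guide or a guide against GNA13. All 4 libraries came from cells given 10 nM U46619, a stable analog of thromboxane A2, for 24 h, of which 2 were labelled control and the other 2 GNA13-deficient. Untreated cells were not analysed here, so each difference is one between genotypes under receptor stimulation, and each genotype stood on 1 guide. The duplicates were not described as separate cultures, so p values measure only the spread between these libraries, which may be technical.

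Totals of mapped reads lay between 29209544 and 31537955, and every value up to 400 reads corresponded to a whole number of reads within 0.0006 on the log2 scale. The B cell markers CD79B and PAX5 stood at 14.11 to 14.33 and 12.83 to 13.01 on the deposited log2 scale in the 4 libraries, and MME, a marker of germinal center B cells, at 13.99 to 14.08. Myeloid markers summed to 7.67 and 7.80 RPM (reads scaled by the library's total of mapped reads) in the control libraries against 0.896 and 0.842 in those labelled GNA13-deficient, T cell markers to at most 0.822 and stromal markers to at most 0.564, and their part in the results below was not tested. In bulk RNA, more cells that express a gene and more of its RNA per cell cannot be told apart.

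The mRNA of the targeted gene went against the label. GNA13 stood at 12.46 and 12.45 in the control libraries and at 13.10 and 13.11 in the libraries labelled GNA13-deficient, on the deposited log2 scale of normalized reads. The difference was 0.65 (SE 0.05, limma adjusted p = 0.00214). GAPDH, a glycolytic enzyme often taken as a reference, stood at 16.09 and 16.29 against 16.61 and 16.74, a difference of 0.49 (SE 0.132, limma adjusted p = 0.0502), and relative to it the GNA13 difference was 0.17 (limma adjusted p = 0.259). GAPDH was itself called higher by voom (adjusted p = 0.00423) and under quantile normalization (limma adjusted p = 0.0137). It was not called without the filter on low values (limma adjusted p = 0.479) or without the variance trend (limma adjusted p = 0.0872). Each value given relative to GAPDH also carries the GAPDH difference. The gene-level values do not show the edit, and protein was not analysed here. The directions below are therefore those of the libraries as labelled.

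TPM1 encodes a tropomyosin best known from muscle and also made as many splice forms in other cells. It stood at 6.53 and 6.42 in the control libraries and at 7.82 and 7.90 in the libraries labelled GNA13-deficient. Both of the latter lay above both controls, with a gap of 1.29 between the nearest libraries. The means were 6.48 ± 0.08 and 7.86 ± 0.053 (SD, n = 2), a difference of 1.39 (SE 0.144) or 2.61-fold. Behind these values were 91 and 87 reads (95% Poisson intervals 73.3 to 112 and 69.7 to 107) against 221 and 222 reads (193 to 252 and 194 to 253), and the intervals of the genotypes did not meet. They cover counting error only and are not a test between genotypes. Duplicates varied beyond counting error, with a chi-square per degree of freedom of 11.74 for control and 11.37 for GNA13-deficient. TPM1 was a gene of modest expression, at the 44.0th percentile of mean level, and its difference was number 412 from the top among 16945 genes.

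TPM4 encodes a tropomyosin of non-muscle cells that is abundant in blood lineages. It stood at 12.99 and 13.02 in the control libraries and at 13.76 and 13.83 in those labelled GNA13-deficient. The genotypes lay apart by 0.74, with SDs of 0.023 and 0.047 (n = 2), and the difference was 0.79 (SE 0.059) or 1.73-fold. TPM3, the other main cytoplasmic tropomyosin, stood at 13.92 and 14.02 against 14.34 and 14.45, a difference of 0.42 (SE 0.078) or 1.34-fold. The TPM3 genotypes also lay apart, by 0.32, but this order depended on the scale, since relative to GAPDH the difference was -0.06.

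TPM2, a tropomyosin of muscle and stromal cells, was close to the limit of detection. It stood at 4.03 and 3.44 in the control libraries, from 16 and 11 reads, and at 4.56 and 4.11 in the libraries labelled GNA13-deficient, from 23 and 16 reads. The groups were separated by only 0.08, and the Poisson intervals of all 4 libraries overlapped (9.15 to 26.0 and 5.49 to 19.7 against 14.6 to 34.5 and 9.15 to 26.0). The TPM2 difference of 0.60 (SE 0.398) moved to 0.31 without control replicate 2 and to 0.37 without GNA13-deficient replicate 1. It was 0.90 without control replicate 1, and no difference between genotypes is read from these few reads.

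**Figure D1:**
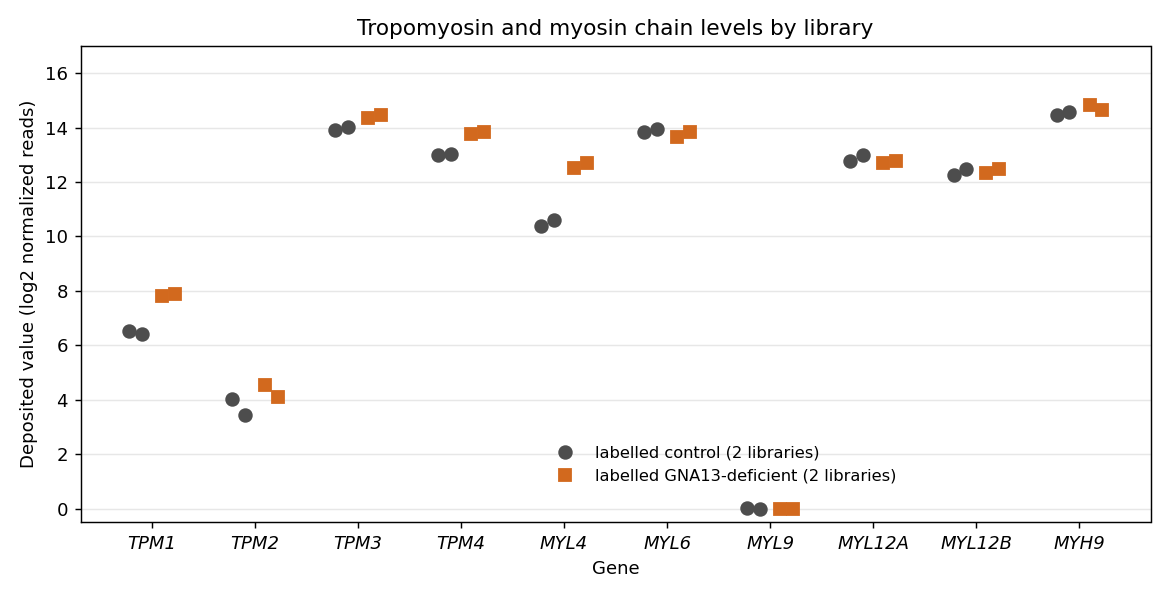
Deposited log2 values (vertical axis) of the 10 genes in each of the 4 libraries, with control libraries as circles and libraries labelled GNA13-deficient as squares. MYL4, TPM1 and TPM4 show wide gaps between genotypes, MYL12A and MYL12B overlap, and MYL9 lies at or next to 0 in every library.

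Since TPM1 and TPM4 had the largest differences of the tropomyosins, a proximal promoter window of each is shown, running from 250 bases before to 50 bases after a RefSeq transcription start in build GRCh38.p14. They were searched for the CArG box, the element read by serum response factor (SRF), a regulator of actin and tropomyosin genes that works with the actin-sensing cofactors MRTFA and MRTFB. Capitals mark a CArG box. The TPM1 window, chr15:63048239-63048538 on the plus strand, held none, and the window of the most upstream TPM4 start, chr19:16067288-16067587 on the plus strand, held 1, with its first base at position -173.
TPM1: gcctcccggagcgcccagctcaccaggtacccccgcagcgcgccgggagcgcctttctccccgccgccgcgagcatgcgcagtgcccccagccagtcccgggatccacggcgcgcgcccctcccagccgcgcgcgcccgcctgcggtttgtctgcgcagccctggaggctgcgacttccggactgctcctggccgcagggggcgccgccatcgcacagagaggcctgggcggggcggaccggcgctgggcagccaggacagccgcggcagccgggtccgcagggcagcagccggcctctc
TPM4: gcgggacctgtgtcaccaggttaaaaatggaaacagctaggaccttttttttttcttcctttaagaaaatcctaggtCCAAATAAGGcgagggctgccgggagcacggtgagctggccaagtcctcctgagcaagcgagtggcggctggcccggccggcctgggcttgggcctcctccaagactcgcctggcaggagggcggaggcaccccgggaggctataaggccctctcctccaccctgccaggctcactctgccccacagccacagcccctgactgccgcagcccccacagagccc
RefSeq windows were at hand for 8 of the 10 genes, 16 windows in all, and this TPM4 window was the only 1 of the 16 with a match on either strand. Across all RefSeq genes, 454 of 35116 windows (1.29%) held a CArG box, in 438 of 27305 genes (1.6%). A match is a description of letters, and its absence from the other 15 windows says nothing of SRF there. Gene-level values do not show which TPM4 start was in use.

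MYL4 had the largest difference of the 10 genes. It encodes an essential light chain known from embryonic muscle and the cardiac atrium, yet its transcript was plentiful in these lymphoma cells. MYL4 stood at 10.39 and 10.62 in the control libraries and at 12.52 and 12.71 in the libraries labelled GNA13-deficient. No library of one genotype came near the other, the gap being 1.90. The means were 10.5 ± 0.165 and 12.62 ± 0.137 (SD, n = 2), a difference of 2.11 (SE 0.108) or 4.32-fold, number 111 from the top among 16945 genes and number 3 among the genes at or above the median level. With any 1 library left out the difference lay between 2.00 and 2.23.

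The canonical MYL4 transcript shared no 50-base stretch with another annotated gene, and the gene's exons overlapped those of no other annotated gene. The gene lies at chr17:45277812-45301045 on the plus strand of GRCh37, the assembly called hg19 in the study. Sarcomere genes were otherwise scarce. Of 28 listed, 11 were at 0 in every library and 13 were tested, and limma called 0 of the 13 (1 at an unadjusted p under 0.05, and 1 by voom). The sum of the list was 58.9 and 53.4 RPM in the control libraries and 57.1 and 51.3 in the others. Most of that was MYBPC2, a myosin binding protein of fast muscle chosen here after its values were seen, which stood at 10.38 and 10.36 against 10.47 and 10.46 (limma adjusted p = 0.267).

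MYL6 is the usual essential light chain of non-muscle myosin II. It stood at 13.85 and 13.95 in the control libraries and at 13.65 and 13.84 in those labelled GNA13-deficient. The latter were both lower, but the nearest pair differed by only 0.01, less than the spread between duplicates. The difference of -0.15 (SE 0.09) became 0.05 when each library was centred on its median gene. MYL6B, another essential light chain, had a difference of 0.18 (limma adjusted p = 0.209), which was -0.30 relative to GAPDH.

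The regulatory light chains overlapped between genotypes. MYL12A stood at 12.78 and 12.98 in the control libraries and at 12.69 and 12.79 in the libraries labelled GNA13-deficient, a difference of -0.14 (SE 0.086) that became 0.07 under median centring. MYL12B, its close copy at the neighbouring locus, stood at 12.24 and 12.47 against 12.34 and 12.48, a difference of 0.05 (SE 0.098). In both genes 1 library of each genotype fell within the range of the other, and the MYL12B difference changed sign relative to GAPDH (-0.44) and when single libraries were left out (-0.06 with control replicate 1 left out and -0.02 with GNA13-deficient replicate 2 left out). MYL9, the regulatory light chain of smooth muscle, had 1 read in control replicate 1 and was listed at 0 in the other 3 libraries. A count of 0 allows up to 3 reads, and in control replicate 2 a listed 0 can also hold 1 read.

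MYH9, the main non-muscle myosin II heavy chain of blood cells, stood at 14.45 and 14.59 in the control libraries and at 14.82 and 14.65 in those labelled GNA13-deficient. The genotypes were separated by 0.05, less than the SDs of 0.103 and 0.122 (n = 2). The difference of 0.21 (SE 0.098), or 1.16-fold, fell to 0.13 without GNA13-deficient replicate 1 and was -0.27 relative to GAPDH.

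Across the 9 genes above the filter, the median difference was 0.42, where the median over all genes tested was -0.02. The libraries labelled GNA13-deficient were both higher than both controls in 6 genes (TPM1, TPM2, TPM3, TPM4, MYL4 and MYH9), beside 31.3% of all genes tested, and both lower in 1, MYL6, beside 34.0%, which makes 7 of 9 apart in either direction beside 65.3%. Because the genes were chosen with this comparison known, nothing is read from these counts. The differences depended on the scale in a shared way. Relative to GAPDH the range ran from -0.64 for MYL6 to 1.62 for MYL4 and the median was -0.06, while MYL4, TPM1 and TPM4 stayed higher under every setting tried, at 1.62 to 2.32, 0.90 to 1.69 and 0.31 to 1.00, as did TPM2 at 0.12 to 1.04.

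**Figure D2:**
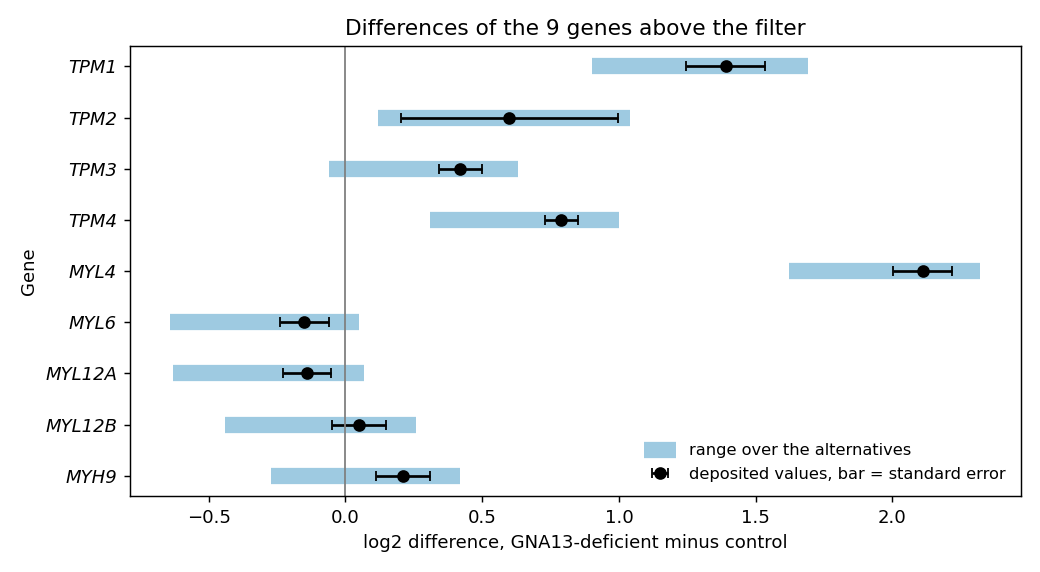
Difference of mean log2 value, libraries labelled GNA13-deficient minus control (horizontal axis), for the 9 genes above the filter, with limma standard errors as bars and the range over the alternative settings as a shaded band. MYL4 at 2.11, TPM1 at 1.39 and TPM4 at 0.79 stay right of 0 over their whole range, whereas the ranges of TPM3, MYL6, MYL12A, MYL12B and MYH9 cross 0.

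Levels were compared between genes per length, as reads per kilobase of the union of annotated exons, within each family. MYL4 took 18.1% and 19.4% of the reads per kilobase of the essential light chains in the control libraries and grew to 51.9% and 52.1% in those labelled GNA13-deficient. MYL6 took 74.0% and 72.4% against 42.1% and 42.2%, so by this length MYL4 passed MYL6 in both libraries labelled GNA13-deficient. That order depended on the length used and held only with the union of exons. With the longest transcript the MYL4 share went from a mean of 12.8% to 40.9%. The MYL6 share then went from 79.5% to 52.7%, so MYL6 stayed the larger. With the canonical transcript, a choice made after seeing the data, the MYL4 share went from a mean of 6.85% to 25.8% and that of MYL6 from 87.1% to 68.3%, leaving MYL6 the larger.

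Among the tropomyosins, TPM3 and TPM4 made up nearly all of the reads per kilobase. The TPM4 share was 38.8% and 37.7% in the control libraries against 44.6% and 44.0% in those labelled GNA13-deficient, and the TPM3 share was 60.5% and 61.8% against 54.5% and 55.2%. The shift toward TPM4 was 6.08 points by the union of exons and 5.40 by the canonical transcript, although by the canonical transcript TPM4 was the larger in both genotypes, at 58.5% and 63.9%. TPM1, for all its difference, was a small part, at 0.372% and 0.327% against 0.612% and 0.607%.

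Of the regulatory light chains, MYL12A took 45.5% and 44.9% in the control libraries against 42.2% and 41.6% in those labelled GNA13-deficient, with MYL12B as the remainder. Which of these was the larger depended on the length used. The mean MYL12A share was 64.1% against 61.0% by the longest transcript and 63.6% against 60.4% by the canonical transcript. Of the heavy chains, MYH9 took 95.0% and 95.1% against 91.8% and 92.0%, and MYH10, which encodes non-muscle myosin IIB, took 4.98% and 4.86% against 8.22% and 8.02%. The mean MYH10 share was 6.63% against 10.8% by the longest transcript and 8.76% against 14.1% by the canonical transcript. Summed over a family and scaled to the library total, reads per kilobase were 1.445 times the control mean for tropomyosins, 1.508 times for essential light chains, 1.162 times for heavy chains and 0.943 times for regulatory light chains in the libraries labelled GNA13-deficient.

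**Figure D3:**
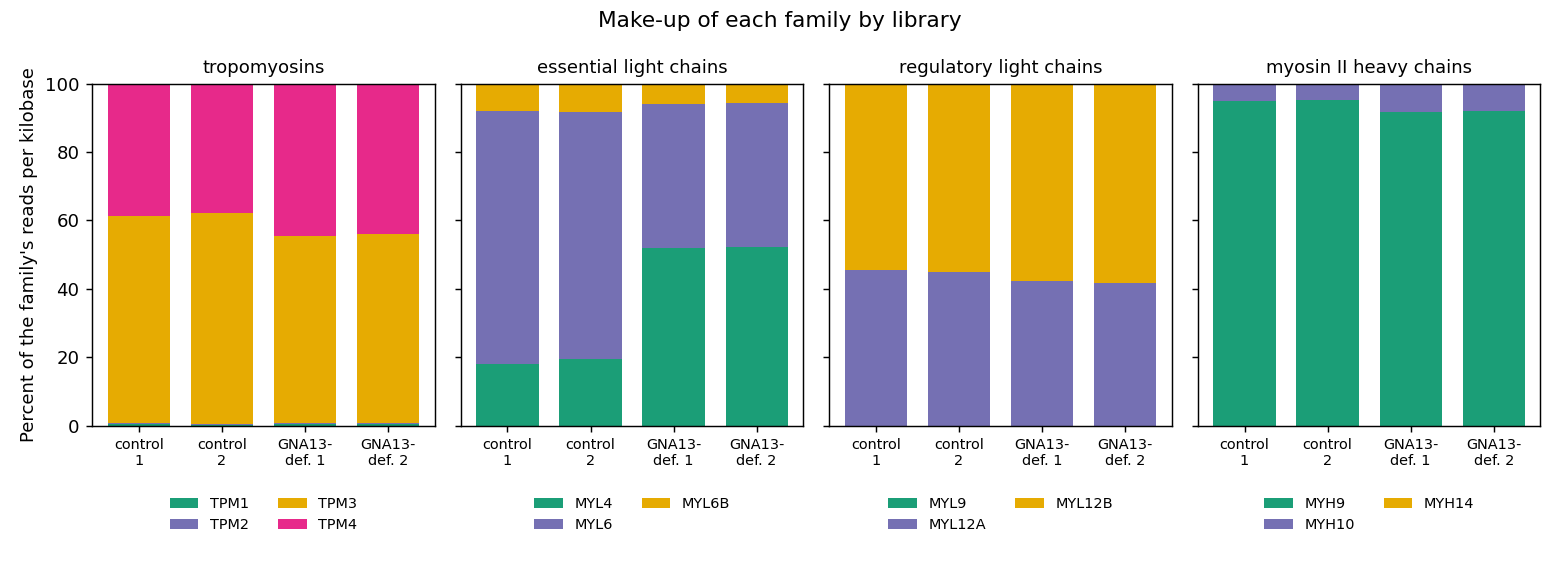
Share of each family's reads per kilobase of exon union, in percent (vertical axis), taken by each gene in the 4 libraries, for tropomyosins, essential light chains, regulatory light chains and heavy chains. MYL4 grows from 18.1% and 19.4% in the control libraries to 51.9% and 52.1% in the libraries labelled GNA13-deficient, and TPM1, TPM2, MYL9 and MYH14 are too small to be seen.

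Several of these genes share sequence, which limits what gene-level reads can separate. The coding sequences of the 4 tropomyosins were 74.1% to 80.2% identical in pairs, and those of MYL12A and MYL12B were 95.7% identical. Of the 50-base stretches in the canonical transcripts, 12.2% in MYL12A and 10.1% in MYL12B also occurred in another annotated gene, as did 23.5% in TPM4 and 6.5% in TPM3, with the pseudogenes TPM4P2 and TPM3P5 among the other copies. No stretch of TPM1, TPM2 or MYL9 did. TPM1, at chr15:63334819-63364114 on the plus strand of GRCh37, overlaps 2645 exonic bases of TPM1-AS and 691 of another long non-coding gene, both on the opposite strand, and MYL6, at chr12:56552130-56557280 on the plus strand, overlaps 89 exonic bases of MYL6B on the same strand and 719 of SMARCC2 on the opposite one. The library kit kept strand, but whether counting used it was not given in the sources used here, so TPM1 and TPM1-AS reads may not have been told apart.

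The genes whose pattern over the 4 libraries was most like that of TPM1 and MYL4 were found by Euclidean distance between log2 values centred on each gene's mean, among 8466 genes of higher expression. Nearest to TPM1 were RTKN2 (distance 0.073), FAM129A (0.092) and C4orf34 (0.12). RTKN2 stood at 7.57 and 7.44 against 8.78 and 8.94. Nearest to MYL4 were LAT2 (0.131), an adaptor of B cell receptor signaling, DUSP6 (0.141), a phosphatase of ERK, and IGLL1 (0.216), the surrogate light chain of pre-B cells. LAT2 stood at 9.83 and 9.89 against 11.94 and 12.09, and IGLL1 at 12.45 and 12.64 against 14.34 and 14.55. With 4 libraries in 2 groups, such likeness describes these libraries only.

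The other genes of the actomyosin system were taken from 7 lists, of which 108 of 126 genes were tested. Limma called 28 genes higher and 19 genes lower in those labelled GNA13-deficient at an adjusted p under 0.05, 43.5% of those tested, beside 13.1% higher, 16.6% lower and 29.7% in all over every gene tested. These shares are not matched for level. With only genes at or above the median level fitted, limma called 39 of 69 list genes, beside 4083 of 8473 genes. Their median difference was 0.10, against -0.02 over all genes. The split depended on the scale, being 44 higher and 13 lower with each library centred on its median gene, which moved the median of all genes to 0.18, and 5 higher and 45 lower relative to GAPDH, which moved it to -0.51. With any 1 of the 4 libraries left out, limma called 0 of the 108, with 46 to 49 at an unadjusted p under 0.05, and without the filter on low values it called 14.

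MYH10 rose and stood closest to the genes above, as the partner heavy chain of MYH9. It was at 11.14 and 11.24 in the control libraries and at 12.28 and 12.07 in the libraries labelled GNA13-deficient, a difference of 0.99 (SE 0.09, limma adjusted p = 0.00288). It missed the threshold without the filter on low values (limma adjusted p = 0.0518). MYH14, the third non-muscle heavy chain, was called lower from 7 and 3 reads against 0 and 0, which is at or near the floor of 3 reads. It passed the filter on low values only through the control libraries, which fixed its direction. That call, counted among the lower genes above, is not read as a result. MYH11, of smooth muscle, did not pass the test. Of 4 other myosin light chains tested, limma called 0 (0 at an unadjusted p under 0.05 and 0 by voom).

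Genes that bind tropomyosin or actin filaments moved in both directions. Of 41 tested, 12 rose and 8 fell, 48.8% of the list, with a median difference of 0.12. CNN2, a calponin of actin bundles, rose by 0.67 (SE 0.084, limma adjusted p = 0.00626), a call lost without the filter on low values (limma adjusted p = 0.0745) and relative to GAPDH, where the difference was 0.18 (limma adjusted p = 0.165). LSP1, an actin-binding protein of leukocytes, fell by 0.69 (SE 0.08, limma adjusted p = 0.00509), and missed the threshold without the filter (limma adjusted p = 0.0647). Genes picked after their values were seen included the tropomodulins, which cap the tropomyosin-coated end of filaments. TMOD1 had 1 and 0 reads in the control libraries and 6 and 9 in the others, TMOD2 rose by 1.37 (SE 0.303, limma adjusted p = 0.0287, but 0.127 without the filter and 0.0922 relative to GAPDH), and TMOD3, with a difference of 0.20 (limma adjusted p = 0.0807), did not pass. S100A4, a calcium-binding protein that binds the MYH9 tail, was also picked in this way and fell by 1.94 (SE 0.125, limma adjusted p = 0.00157).

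The unconventional myosins were likewise mixed, with 5 of 22 tested higher and 4 lower, 40.9% of the list, and a median difference of -0.06. MYO1C rose by 0.61 (SE 0.053, limma adjusted p = 0.00254) and MYO1D by 0.87 (SE 0.103, limma adjusted p = 0.0053), both single-headed membrane motors. Relative to GAPDH both calls were lost, at 0.13 (limma adjusted p = 0.434) and 0.38 (limma adjusted p = 0.133). MYO1G, the haematopoietic member of that class, fell by 1.47 (SE 0.097, limma adjusted p = 0.00161).

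Among the genes that switch myosin II on or off, 2 of 27 tested rose and 6 fell, 29.6% of the list. RHOC, a close relative of RHOA, stood at 9.02 and 9.18 in the control libraries and at 7.54 and 7.67 in the libraries labelled GNA13-deficient, and fell by 1.5 (SE 0.112, limma adjusted p = 0.00204). CDC42BPB, a kinase related to ROCK, fell by 0.78 (SE 0.087, limma adjusted p = 0.00457), and MYLK3, a myosin light chain kinase, fell by 0.49 (SE 0.127, limma adjusted p = 0.0434), a call lost under quantile normalization (limma adjusted p = 0.0601), under median centring (limma adjusted p = 0.121), without the filter (limma adjusted p = 0.213) and without the variance trend (limma adjusted p = 0.128). RHOA itself differed by 0.00 (limma adjusted p = 0.994), ROCK1 by -0.05 (limma adjusted p = 0.682) and ROCK2 by -0.13 (limma adjusted p = 0.449), and these 3 were chosen after their values were seen.

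The list named for the contractile ring, the actomyosin structure that divides the cell, held 8 genes of cytokinesis. Not all of them encode parts of the ring itself. Of the 8 genes, 7 rose and 0 fell (0 lower also at an unadjusted p under 0.05 by limma), 87.5% of the list, with a median difference of 0.64. DIAPH3, a formin of the ring, rose by 1.31 (SE 0.071, limma adjusted p = 0.00119), CEP55, an abscission factor, by 0.90 (SE 0.088, limma adjusted p = 0.00339), and ECT2, the exchange factor that activates RhoA at the midzone, by 0.83 (SE 0.092, limma adjusted p = 0.00442). ANLN, RACGAP1, KIF23 and CIT rose by 0.55 to 0.67, and PRC1, with a difference of -0.10, did not pass (limma adjusted p = 0.296). Relative to GAPDH, 1 gene of this list remained called higher and 1 was called lower, and the median was 0.15. Without the filter on low values, 2 of the 8 were called higher, and without the variance trend 5 were.

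SRF, whose element was sought in the promoters above, differed by 0.09 (limma adjusted p = 0.267), and its cofactor MKL1, the older symbol of MRTFA, by 0.10 (limma adjusted p = 0.261). MKL2, now MRTFB, rose by 0.28 (limma adjusted p = 0.0471), close to the threshold, and missed it by voom (adjusted p = 0.107), without the filter (limma adjusted p = 0.0929) and without the variance trend (limma adjusted p = 0.12). Relative to GAPDH the 3 differences were -0.40, -0.38 and -0.21.

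**Figure D4:**
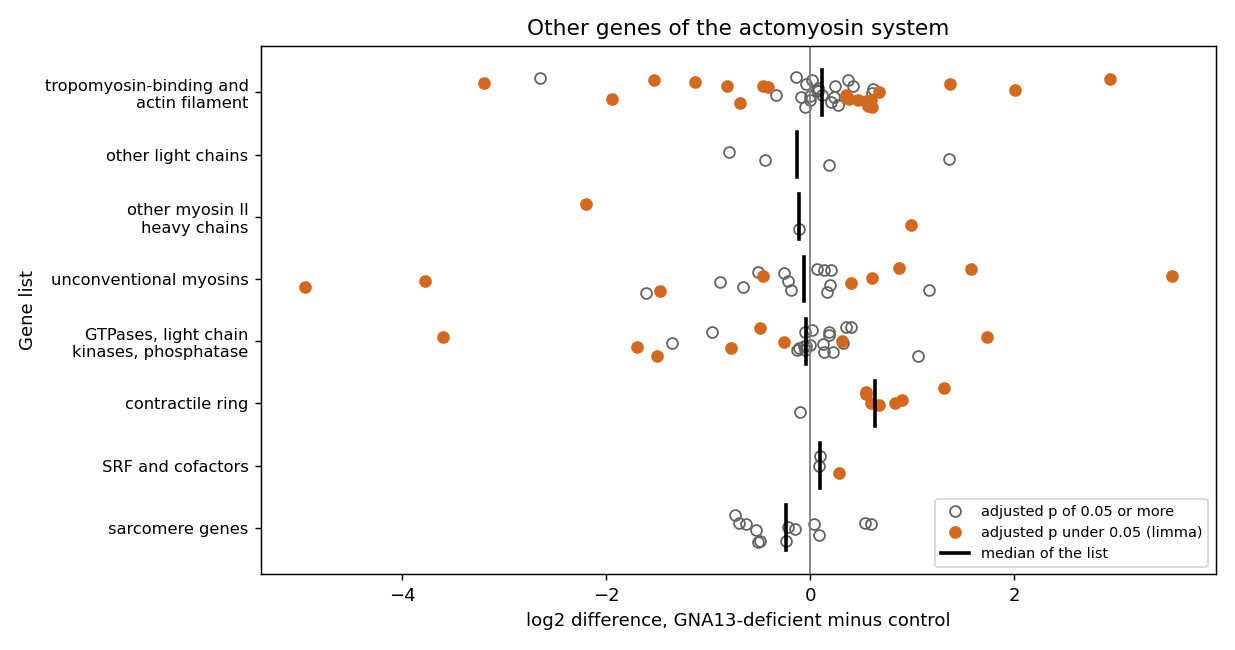
Log2 difference, libraries labelled GNA13-deficient minus control (horizontal axis), of each tested gene of the lists, 1 row of points for each list with its median marked, and filled points for an adjusted p under 0.05. The contractile ring list sits to the right, with a median of 0.64, while the actin filament, unconventional myosin and kinase and phosphatase lists spread to both sides of 0.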

How the data were processed

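Poly(A) RNA of 4 NUDUL1 libraries was sequenced from a stranded kit. Reads were aligned by the authors with STAR (hg19), and the authors deposited log2 values of normalized reads per gene; the submitters' processing notes also name HTSeq. The deposited totals of mapped reads, listed with the log2 values, gave the depth. The values stepped in whole reads, which were recovered (all values up to 400 reads whole within 0.0006 log2); in control replicate 2 a listed 0 can be 0 or 1 read.

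The deposited values were fitted with limma 3.58.1 in R 4.3.3 (lmFit, eBayes with a mean-variance trend), genotype as the only term, 2 residual degrees of freedom, on the 16945 genes above 0 in 2 or more libraries. Adjusted p values are Benjamini-Hochberg over all of these, two-sided, threshold 0.05. Duplicates differed beyond sampling noise (chi-square per degree of freedom 11.74 and 11.37).

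Gene models were GENCODE 44 mapped to GRCh37. A family's share used reads per kilobase of exon union. For each list, genes named were the 3 largest absolute differences with adjusted p under 0.05 among genes in the upper part by mean level (from the median up); in lists of up to 8 genes any tested gene could be named. Some items that these rules include are not reported here. The genes and lists were chosen with earlier results of these data known. Alternatives were other filters, a pseudocount of 1, quantile, median-centred and GAPDH scales, a replicate block, other variance models, voom on recovered reads, each library left out, and other gene lengths.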

Additional observations from a re-analysis of the deposited data

How the results depend on the processing

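Of 124 alternative values for the 9 genes above the filter, 97 kept their sign and moved by less than 1 SD of the duplicates, 19 kept it and moved further, and 8 changed sign: TPM3 (-0.06), MYH9 (-0.27) and MYL12B (-0.44) relative to GAPDH, MYL6 (0.05) and MYL12A (0.07) under median centring, and MYL12B under quantile normalization (-0.05), with control replicate 1 left out (-0.06) and with GNA13-deficient replicate 2 left out (-0.02). Their median difference, 0.42, was 0.21 among genes at or above the median level, 0.22 under quantile normalization, 0.63 under median centring and -0.06 relative to GAPDH, and 0.31 to 0.37 with 1 library left out. Genes called, 5037, numbered 1999 without the filter (1885 shared), 7618 relative to GAPDH and 2718 without the variance trend (2520 shared), and 0 to 0 by limma with 1 library left out (5257 to 5600 at an unadjusted p under 0.05), a fit with 1 residual degree of freedom in which the lone library was assumed to vary like the other genotype. The share of calls that were higher, 44.0%, was 69.1% under median centring and 4.2% relative to GAPDH. Actomyosin genes called, 47, numbered 14 without the filter, 26 without the trend and 0 to 0 with 1 library left out. Other genes that changed sign were MYL6B (-0.30), SRF (-0.40), MKL1 (-0.38) and MKL2 (-0.21) relative to GAPDH and PRC1 (0.11) under median centring. The cause of these changes was not tested. No source pairs the libraries by number. Deviations of same-numbered libraries correlated at 0.453 over 8473 genes, and with a replicate block 6616 genes and 57 actomyosin genes were called. Depth limited TPM2, TMOD1, MYH14 and MYL9.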
